A study of Mus musculus with 14 samples.

Results

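The comparison described is that of colons of GR iKO mice and Flox mice that had both received DEX. Its members were the 4 arrays named GR iKO_DEX (replicates 1 to 4) and the 3 arrays named Flox_DEX (replicates 1, 2 and 4), that is 7 of the 14 arrays of the series, chosen by their sample names. All mice were male C57BL/6 mice and had been adrenalectomized (ADX), which removes the main source of their own GCs. Flox mice carry GR alleles flanked by loxP sites, and GR iKO mice carry in addition Cre recombinase under the *Villin* promoter, so that GR is deleted in the intestinal epithelium from development onward while the other cells of the colon wall keep it. DEX was injected intraperitoneally at 1 mg/kg, 2 weeks after ADX, and whole colon was taken 6 hours later. The deposited labels give an age of 8 to 10 weeks and ADX at 6 to 8 weeks, whereas the methods of the study give an age in months that does not fall in this range. The remaining arrays, 4 from Flox_PBS and 3 from GR iKO_PBS mice, entered the same model and served as the background without DEX. The treatment text of the labels describes DEX for every sample, PBS samples included, so the groups rest on the sample names.

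GR is a nuclear receptor that stays in the cytoplasm with heat shock proteins until it binds a GC such as DEX. It then moves to the nucleus, binds palindromic DNA elements and raises the transcription of target genes, and it also lowers many inflammatory transcripts through other transcription factors. In the colon, GCs are known for raising sodium and water absorption by surface colonocytes and for dampening immune cells of the mucosa. Whole colon holds epithelium, muscle, stroma, nerve and immune cells, and in such bulk RNA fewer cells of a type and less RNA per cell cannot be told apart.

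Called probes had a Benjamini-Hochberg adjusted p under 0.05 in limma over all 41174 probes and a difference of at least 2-fold, and values are log2 signals of the deposited normalized table. Among the 28405 probes that were well above background on every array of at least 1 of the DEX groups, 55 were called. GR iKO_DEX colons were lower at 37 of them, or 0.13% of the probes tested, and higher at 18, or 0.0634%. The 37 lower probes belonged to 29 named genes, among them *Arg2*, *Sgk1*, *Fam43a*, *Fkbp5*, *Hsd11b2* and *Slc9a3*, and the 18 higher ones to 14 named genes, among them *Mt1*, *Sectm1a*, *Cda* and *Slc5a8*. The count depended on single arrays, being 13 without Flox_DEX replicate 1 and 120 without Flox_DEX replicate 4. With scaling of each array by its 75th percentile in place of quantile normalization the split was 24 lower and 20 higher. Over all 41174 probes 79 were called, which is 0.192%. With 1 probe a gene, 24 of 15358 genes were called lower (0.156%) and 10 higher (0.0651%). At an unadjusted p under 0.05 the count was 5146 probes, and 114 further probes passed the adjusted p but differed by less than 2-fold, 66 of them lower and 48 higher.

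The 7 arrays were comparable in brightness, with 28302 to 30518 probes well above background each. Signals correlated at r = 0.982 to 0.993 between arrays of one group and at 0.975 to 0.985 between the groups. Each group was hybridized on a slide of its own, with 1 array per mouse, and differences of slide and of group therefore cannot be told apart. P-values measure the spread between these arrays.

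GR binds palindromic DNA elements, and the window before the transcription start was searched for them because GR was the gene deleted. Of the 27 RefSeq genes with a called lower probe, 20 had a promoter in the RefSeq table (GRCm38.p6), and of the 13 with a called higher probe 9 had one. The window reached 250 bases before and 50 bases after the start. The core element was GNACA, 3 bases of any kind, TGTNC, and the full one AGAACA, 3 bases, TGTTCT, each searched on both strands, with the core contained in the full element. Only *Sgk1* held a full element among the called genes, and it was the single match among the 12227 promoters of genes above background, a share of 0.00818%. A core element was also found before *Mt1*, which was higher in GR iKO_DEX colons, while 0.483% of the promoters of genes above background held one. These matches describe letters in the window and not a site in use. The bases before the start of both genes are printed below, with the core element in capitals. In *Sgk1* the full element also takes in the adjoining base on each side. The *Sgk1* stretch is chr10:21993640-21993889 (+), and its core begins at base -188 from the start. The *Mt1* stretch is chr8:94178839-94179088 (+), with its core at base -94.
Sgk1: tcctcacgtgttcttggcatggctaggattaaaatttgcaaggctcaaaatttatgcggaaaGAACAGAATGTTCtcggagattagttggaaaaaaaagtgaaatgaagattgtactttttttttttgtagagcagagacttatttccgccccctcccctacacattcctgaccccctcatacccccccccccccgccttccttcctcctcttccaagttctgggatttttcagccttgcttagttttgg
Mt1: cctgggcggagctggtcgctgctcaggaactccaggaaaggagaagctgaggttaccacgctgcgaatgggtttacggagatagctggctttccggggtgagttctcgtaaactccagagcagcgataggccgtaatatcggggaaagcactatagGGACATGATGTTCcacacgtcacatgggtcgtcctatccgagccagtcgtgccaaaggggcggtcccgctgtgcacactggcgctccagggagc

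GR itself, encoded by *Nr3c1*, was lower in GR iKO_DEX colons by 3 of its 4 probes. The brightest probe read 10.54, 10.53 and 10.75 in Flox_DEX replicates 1, 2 and 4 and 9.27, 9.32, 9.44 and 9.41 in GR iKO_DEX replicates 1 to 4. The groups did not overlap, and the arrays of each lay close together. This is a 2.37-fold lower signal (log2 difference -1.24 ± 0.12 SE, adjusted p = 0.002), which leaves a clear *Nr3c1* signal in whole colon from which the epithelium alone was targeted. Log2 differences at the other called probes were -1.37 and -1.17, with adjusted p-values of 0.006 and 0.002. The dimmest probe, whose GR iKO_DEX arrays ranged from 4.04 to 6.77, differed by -0.43 ± 0.50 SE (adjusted p = 0.754). Which exons are removed was not given in the sources used here, so the probes could not be placed relative to the deleted part. Without DEX the 3 probes were lower by 0.83 to 1.08 in GR iKO colons, and all passed an adjusted p of 0.05.

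*Sgk1*, a kinase that raises sodium uptake through the epithelial sodium channel and NHE3, read 15.69, 15.19 and 15.37 in Flox_DEX and 12.79, 13.14, 13.16 and 12.43 in GR iKO_DEX colons. Every GR iKO_DEX array lay far below every Flox_DEX array, a 5.80-fold lower signal (-2.54 ± 0.31 SE, adjusted p = 0.011). Without DEX the genotypes differed by 0.00 (adjusted p = 1.00). *Fkbp5* encodes a co-chaperone that lowers the affinity of GR for hormone. Its brighter probe read 12.12, 11.93 and 11.64 in Flox_DEX and 9.42, 10.21, 9.65 and 9.68 in GR iKO_DEX colons, which did not overlap. It was 4.47-fold lower (-2.16 ± 0.33 SE, adjusted p = 0.023), a dimmer probe, which lay in a patch of the array grid described with the positions, gave -2.19 (adjusted p = 0.016), and the third gave -1.57 without passing (adjusted p = 0.129). Without Flox_DEX replicate 1 neither gene passed, at an adjusted p of 0.058 for *Sgk1* and 0.078 and 0.098 for *Fkbp5*, with log2 differences of -2.40, -1.96 and -2.05. The *Fkbp5* probes also missed it without Flox_DEX replicate 2 (0.053 and 0.070), and the brighter one without GR iKO_DEX replicate 1 (0.059) or 3 (0.051).

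*Arg2*, the mitochondrial arginase that splits arginine into ornithine and urea, had the largest difference among the called probes. It read 11.13, 9.95 and 9.98 in Flox_DEX and 6.20, 6.45, 6.49 and 6.21 in GR iKO_DEX colons. The GR iKO_DEX arrays lay close together and far below all Flox_DEX arrays, a 16.2-fold lower signal (-4.02 ± 0.55 SE, adjusted p = 0.014). Without Flox_DEX replicate 1, the highest array, the log2 difference was -3.63 with an adjusted p of 0.073. Under PBS *Arg2* differed by 0.99 in the opposite direction and was not called (adjusted p = 0.712).

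Genes of ion and steroid handling followed. *Slc9a3* encodes NHE3, the apical exchanger that takes up sodium for protons. Its bright probe read 14.50, 14.06 and 14.19 in Flox_DEX and 12.26, 12.69, 12.25 and 12.65 in GR iKO_DEX colons. These groups did not overlap, and the signal was 3.45-fold lower (-1.79 ± 0.24 SE, adjusted p = 0.013), with a dimmer probe at -1.94 (adjusted p = 0.014). *Hsd11b2* inactivates corticosterone and so keeps it from the mineralocorticoid receptor. It read 11.54, 11.49 and 11.04 against 9.65, 9.46, 9.03 and 9.28. The lowest Flox_DEX array lay well above the highest GR iKO_DEX array, with a 4.01-fold lower signal (-2.002 ± 0.25 SE, adjusted p = 0.013). Without Flox_DEX replicate 1 the adjusted p was 0.066 and 0.073 for the *Slc9a3* probes and 0.059 for *Hsd11b2*. *Scnn1b*, the beta subunit of the epithelial sodium channel, read 7.59, 7.87 and 7.87 against 6.00, 6.65, 6.01 and 6.96. These values did not overlap either, but the difference of -1.37 was not called (adjusted p = 0.090).

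Genes of amino acid handling were also among the lower ones. *Prodh*, the first enzyme of proline breakdown, read 11.79, 11.74 and 11.37 in Flox_DEX and 10.10, 10.44, 10.30 and 10.33 in GR iKO_DEX colons, without overlap (-1.34 ± 0.15 SE, adjusted p = 0.006). *Acy1*, which frees amino acids from their acetylated forms, read 10.81, 10.82 and 10.46 against 9.41, 9.09, 9.02 and 8.93. It was 3.01-fold lower (-1.59 ± 0.16 SE, adjusted p = 0.002). *Acy1* and *Prodh* stayed called when any 1 of the 7 arrays was left out, though the *Prodh* probe lay in the same patch of the grid as the dimmer *Fkbp5* probe. *Gldc*, part of the glycine cleavage system, differed by -1.72 (adjusted p = 0.024) and *Slc6a19*, a transporter of neutral amino acids, by -2.16 (adjusted p = 0.027). The *Slc6a19* probe was dim and stood well above background on 1 of the 4 GR iKO_DEX arrays. Without Flox_DEX replicate 1 both lost the call (adjusted p = 0.098 and 0.092). *Gldc* also lost it without Flox_DEX replicate 2 (0.079) or GR iKO_DEX replicate 1 (0.058) or 2 (0.061), and *Slc6a19* without any array other than GR iKO_DEX replicate 1, at 0.051 to 0.092.

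*Fam43a* had the smallest adjusted p of the comparison. It read 10.20, 9.78 and 10.07 in Flox_DEX and 7.64, 7.66, 7.95 and 7.33 in GR iKO_DEX colons. All GR iKO_DEX arrays lay well below the Flox_DEX arrays, and the signal was 5.18-fold lower (-2.37 ± 0.15 SE, adjusted p = 1.2e-04). *Npc1*, which exports cholesterol from lysosomes, read 9.47, 9.15 and 9.19 against 8.09, 8.26, 8.28 and 8.32, without overlap (-1.03, adjusted p = 0.006), and without Flox_DEX replicate 1 or GR iKO_DEX replicate 1 its difference was just under 2-fold (-0.93 and -0.98). The transcription factor *Pax8* differed by -1.01 (adjusted p = 0.002) and fell just short of 2-fold without Flox_DEX replicate 2 (-0.99) or GR iKO_DEX replicate 1 (-0.95), and likewise without Flox_DEX replicate 4 (-0.999).

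The remaining named genes on the lower side covered several roles. *Ly6m*, of the Ly6 family of membrane-anchored proteins, read 14.82, 14.43 and 14.28 against 11.84, 13.27, 12.93 and 12.80. GR iKO_DEX replicate 1 was the lowest array, and the difference was -1.80 (adjusted p = 0.023) beside -0.94 under PBS (adjusted p = 0.339). The imprinted noncoding RNA *Rian* read 7.18, 6.87 and 7.43 against 5.71, 4.77, 4.89 and 5.20, a difference of -2.01 (adjusted p = 0.019) beside -1.42 under PBS (adjusted p = 0.126). *Pde9a*, which breaks down cGMP, *Gda*, a guanine deaminase, and *Rhou*, a small GTPase, differed by -1.54, -1.29 and -1.11. The transcription factors *Tfcp2l1* and *Hif3a* differed by -1.20 and -1.51 at the called probes. Their other probes were not called, with -1.04 to -0.79 for the 3 of *Tfcp2l1* and -0.89 and -0.64 for the 2 of *Hif3a*. *Nyx* (-1.60) also rested on 1 called probe, its other one differing by -0.39. The called probes of *Hif3a* and *Nyx* were dim and well above background on 1 and 2 of the 4 GR iKO_DEX arrays, so they entered through Flox_DEX. A further gene, *Sbpl*, differed by -1.09. Each of these genes lost the call without Flox_DEX replicate 1, at an adjusted p of 0.088 for *Rian* to 0.169 for *Rhou*. *Ly6m* and *Pde9a* lost it without Flox_DEX replicate 2 (0.061 and 0.076), *Rian* without GR iKO_DEX replicate 2 (0.056), *Pde9a* without GR iKO_DEX replicate 1 (0.052), and *Gda*, *Rhou*, *Tfcp2l1*, *Hif3a*, *Nyx* and *Sbpl* without at least 5 of the other 6 arrays.

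On the higher side, *Mt1* had the largest difference. It encodes a metallothionein that binds zinc and other metals. The called probe read 8.57, 8.85 and 7.59 in Flox_DEX and 11.15, 11.78, 11.15 and 11.27 in GR iKO_DEX colons. All GR iKO_DEX arrays were far higher, an 8.01-fold difference (3.00 ± 0.36 SE, adjusted p = 0.010). The same probe was 3.85 higher in GR iKO colons under PBS (adjusted p = 0.002), where it was also called. A brighter *Mt1* probe read 15.22, 14.85 and 14.66 against 15.82, 16.12, 15.73 and 16.14. It was 1.04 higher and missed the threshold (adjusted p = 0.051), beside 2.65 under PBS. *Mt2* went the other way, at -0.60 (adjusted p = 0.309).

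*Sectm1a*, which encodes a secreted and transmembrane protein, read 5.64, 5.94 and 6.23 in Flox_DEX and 8.21, 7.87, 8.08 and 7.64 in GR iKO_DEX colons. The groups did not overlap, and the difference was 2.01 ± 0.20 SE (adjusted p = 0.002). *Slc5a8*, the sodium-coupled transporter of short-chain fatty acids, read 11.65, 11.85 and 12.18 against 13.59, 13.10, 13.50 and 13.31. It was higher on every GR iKO_DEX array (1.48 ± 0.27 SE, adjusted p = 0.043). *Slc16a1*, the proton-coupled carrier of lactate and butyrate, differed by 1.00 (adjusted p = 0.045), with 0.70 (adjusted p = 0.031) and 0.57 (adjusted p = 0.073) at its other probes. Leaving out 1 array took the call from *Slc16a1* for each of the 7 arrays, and from *Slc5a8* for 6 of them, all but Flox_DEX replicate 4. *Sectm1a* and *Mt1* kept it throughout.

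Enzymes and further genes made up the rest of the higher side. *Cda*, which deaminates cytidine, read 8.84, 8.76 and 9.30 against 10.37, 10.75, 10.44 and 10.61, without overlap (1.57, adjusted p = 0.014). It lost the call without Flox_DEX replicate 1 (adjusted p = 0.077) or 2 (0.053). *Hsd17b2*, which oxidizes estradiol and testosterone, differed by 1.08 (adjusted p = 0.019), *Slc27a2*, which activates very long chain fatty acids, by 1.11, and the sialyltransferase *St3gal4* by 1.18 (adjusted p = 0.028). *Evpl*, a component of the cornified envelope, differed by 1.10 and 1.04 at its called probes. The interferon-inducible *Oasl1* differed by 1.30 (adjusted p = 0.043), and *Sp100*, a nuclear body protein also induced by interferon, by 1.33 and 1.05 at the called probes but by 0.32 at the third, which was not called. *Rab33a*, a small GTPase, differed by 1.29 (adjusted p = 0.010) and stayed called without any 1 array. The transcription factor *Sp6* differed by 1.13 at one probe and by 0.13 at another, and *4930581F22Rik* by 1.53. Apart from *Rab33a*, each of these enzymes and further genes lost the call at every called probe without Flox_DEX replicate 1, at an adjusted p of 0.077 for *Cda* to 0.156 for *Slc27a2*. Most lost it without other arrays as well, with adjusted p-values of 0.044 to 0.134.

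**Figure D1:**
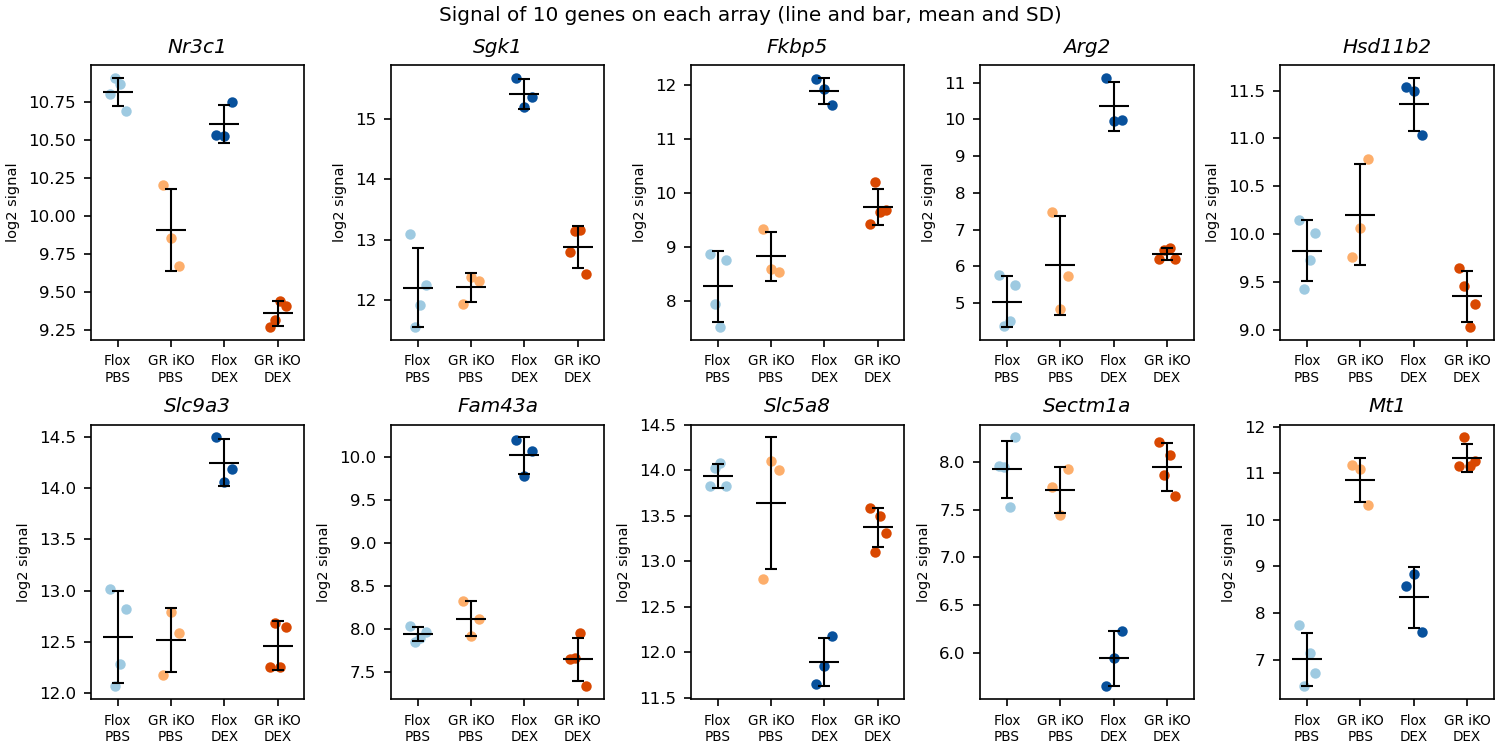
Log2 signal of 10 genes on every array, with points for single arrays, a line for the group mean and a bar for 1 SD, and a separate log2 axis for each gene. *Sgk1* lies at 15.19 to 15.69 in Flox_DEX and at 12.43 to 13.16 in GR iKO_DEX colons, and only *Nr3c1* and *Mt1* of these genes also differ between the genotypes under PBS by the limma test.

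The PBS arrays are different mice from the DEX arrays, and 36 probes were called in their comparison, 0.127% of the 28405. Of the 37 lower probes, 1 was called under PBS, a probe of *Nr3c1*, and 30 differed by less than 0.5 in either direction, as did 26091 of all 28405. Their PBS differences were negative for 19 and positive for 18. Of the 18 higher probes, 1 was called under PBS, that of *Mt1*, and 16 differed by less than 0.5. These shares were not above that of all probes. The median PBS difference was 0.00 for the lower and -0.06 for the higher probes.

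**Figure D2:**
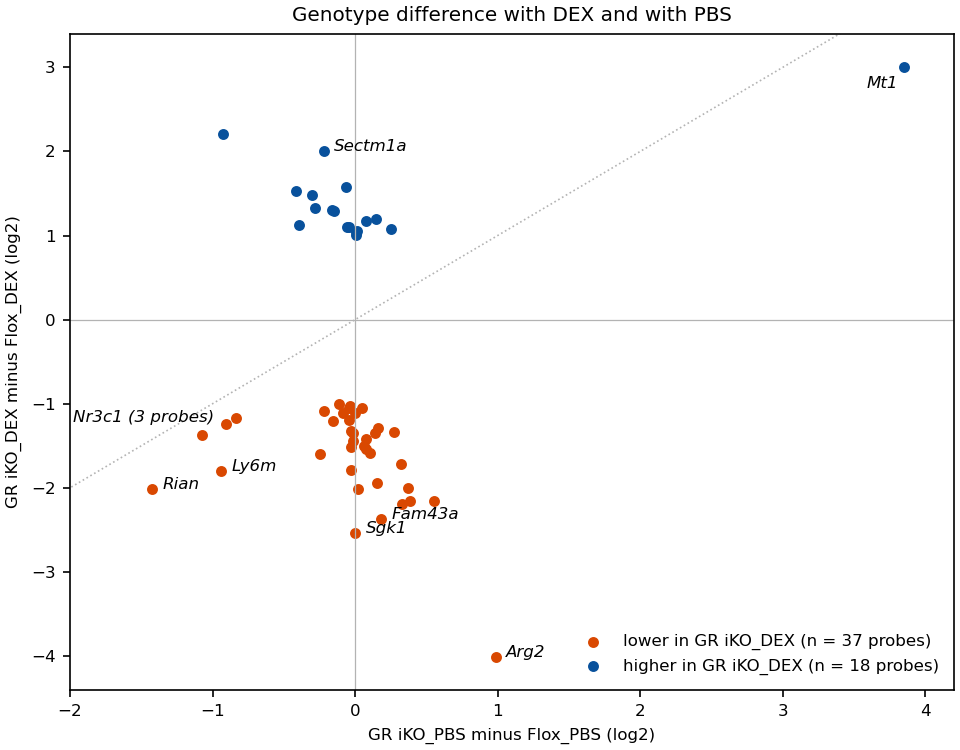
Log2 difference between GR iKO and Flox mice under PBS (x axis) and under DEX (y axis) for the 55 called probes, each point being 1 probe and the dotted line marking equal differences. The x value is within 0.5 for 30 of the 37 lower and 16 of the 18 higher probes, and *Nr3c1* (3 probes), *Rian*, *Ly6m* and *Mt1* lie farther out on the side of their DEX difference, with *Arg2*, the brighter *Fkbp5* probe and an unnamed higher probe on the opposite side.

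The response to DEX within each genotype uses the same DEX arrays, so its values are given beside the difference and are no separate support for it. Among the 28405 probes, 14684 were higher with DEX than with PBS in Flox mice, 0.757% were called higher and 1.03% called lower. Of the 37 lower probes, 31 were higher with DEX in Flox mice, 18 of them called, and of the 18 higher probes 15 were lower with DEX in Flox mice, 12 of them called. *Sgk1* was higher by 3.21 in Flox and by 0.67 in GR iKO mice, *Arg2* by 5.32 and 0.31, and *Fkbp5* by 3.63 and 0.91. *Slc5a8* was lower by 2.05 in Flox and by 0.26 in GR iKO mice, and *Sectm1a* was lower by 1.99 in Flox and higher by 0.24 in GR iKO mice. The interaction term, the DEX response of GR iKO minus that of Flox mice, was called at 43 probes above background (0.151%), 10 of them among the 55. *Arg2* (-5.00, adjusted p = 0.033), *Fam43a* (-2.55, adjusted p = 0.001), *Hsd11b2* (-2.37) and *Sectm1a* (2.23, adjusted p = 0.016) were among those, and *Sgk1* with an interaction of -2.54 was not.

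Gene lists chosen for GC action and colon function are described by 1 probe a gene, over the genes above background. For comparison, the median difference of all 15358 genes was 0.00, 0.221% were called, and the values of the 3 Flox_DEX and 4 GR iKO_DEX arrays did not overlap for 9.43% on the lower and 10.5% on the higher side. Of 21 genes known to be raised by GCs, 16 had a negative difference and 5 a positive one, with a median of -0.27, and under 4 other normalizations 15 to 17 were negative. *Sgk1* and *Fkbp5* were called, and 5 did not overlap on the lower and 1 on the higher side. The highest difference was 1.04, that of the brighter *Mt1* probe. *Tsc22d3*, which encodes GILZ, differed by -0.57, the clock gene *Per1* by -0.78, and *Ddit4*, an inhibitor of mTOR signaling, by -0.46, none of them called. Of 11 genes known to be lowered by GCs none was called, and 6 had a positive difference with a median of 0.17, 8 or 9 of them under the other normalizations. The chemokines *Ccl5*, *Ccl20* and *Ccl2* differed by 0.34, 0.60 and 0.20.

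The receptor itself and its partners made a list of 15 genes with a median of -0.12, of which *Nr3c1* and *Hsd11b2* were called. The chaperones *Hspa8*, *Hsp90aa1* and *Hsp90ab1* differed by -0.05, -0.12 and -0.17. Among 16 genes of epithelial sodium absorption, 12 had a negative difference (12 or 13 under the other normalizations), 7 of them without overlap, against 2 without overlap on the higher side, with a median of -0.26. *Slc9a3* was called. The sodium pump subunit *Atp1b1* differed by -0.61, and the channel subunits *Scnn1g* by -2.71 and *Scnn1a* by 0.35, none of them called. *Slc9a3r1*, the scaffold that holds NHE3 at the membrane, was 0.77 higher at an adjusted p of 0.019, which is under 2-fold.

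Genes of anion, water and fatty acid transport had a median of 0.00 over 15 genes, 7 negative and 8 positive. *Slc5a8* was called higher, 6 genes did not overlap on the higher and 4 on the lower side. The water channel *Aqp8* and the carbonic anhydrases *Car2* and *Car1* differed by 0.59, 0.56 and 0.0014, and the bicarbonate channel *Best2* by -1.94, none called. Among 11 genes of bile acid handling none was called (median -0.02). *Slc10a2*, the apical bile acid transporter, read 12.06, 10.73 and 11.37 in Flox_DEX and 6.81, 8.57, 7.80 and 6.89 in GR iKO_DEX colons. The groups did not overlap, but with this spread the difference of -3.87 ± 1.16 SE did not pass (adjusted p = 0.149). The nuclear receptors *Vdr* and *Nr1h4* and the exporter *Abcc3* differed by 0.37, -0.52 and 0.53.

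In 11 genes of arginine metabolism *Arg2* alone was called, and the median was -0.20. *Odc1*, which makes putrescine from ornithine, *Ckb*, a creatine kinase, and *Oat*, an aminotransferase of ornithine, differed by -0.18, 0.10 and -0.04. No gene was called in the lists of fatty acid and ketone metabolism (16 genes, median 0.13), xenobiotic metabolism (16 genes, 0.20) and the circadian clock (17 genes, -0.13). The lipid carrier *Fabp2* and the lipid droplet protein *Plin2* differed by 0.47 and 0.74, the detoxifying enzymes *Gstm1*, *Cyp2c55*, *Sult1a1* and *Cyp3a13* by 0.29, 0.78, -0.26 and -1.12, and the clock output genes *Dbp*, *Tef* and *Bhlhe40* by 0.69, 0.20 and -0.13.

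The tight junction list had a median of 0.08 over 14 genes, with *Cldn7*, *Cldn3* and *F11r* at 0.07, 0.15 and 0.08, and the crypt list a median of -0.11 over 14 genes, with *Mki67*, *Pcna* and *Sox9* at 0.03, -0.01 and -0.27. None of either list was called. Secreted antimicrobials had a median of 0.45 over 14 genes and no call. The angiogenins *Ang4* and *Ang2* and the lectin *Itln1* differed by 0.94, 0.99 and 1.65 with adjusted p = 0.454, 0.406 and 0.334, *Retnlb* by 0.54, *Lypd8* by 0.09 and *Reg3b* by -5.20 ± 2.96 SE.

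All 14 interferon response genes above background had a positive difference, also under the 4 other normalizations, of 0.11 to 1.07 with a median of 0.49. For 4 of them the groups did not overlap, and none of this list was called. *Irf1* and *Oas1a* differed by 0.49 and 0.32. All 12 antigen presentation genes also had a positive difference (11 with median scaling, which turned *H2-K1*), of 0.03 to 0.79 with a median of 0.28, and the groups overlapped for each. *H2-K1*, *B2m* and *H2-Ab1* differed by 0.03, 0.06 and 0.31. The mean signal of 8 macrophage markers was 8.18 to 8.67 in Flox_DEX and 8.34 to 8.86 in GR iKO_DEX colons, and that of 7 B cell and plasma cell markers was 7.28 to 8.01 and 7.61 to 9.37. Their part in these lists was not tested. The metallothionein and zinc list had a median of 0.10 over 12 genes, counting the brighter *Mt1* probe, and no call, and the zinc importer *Slc39a4* differed by 0.29. Among 12 brakes of growth factor and inflammatory kinases none was called (median 0.11), with *Dusp6*, *Errfi1* and *Tnfaip3* at -0.32, -0.27 and -0.26. The chemokine *Xcl1*, above background on 1 of the 3 Flox_DEX arrays, differed by 1.38 (adjusted p = 0.204).

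**Figure D3:**
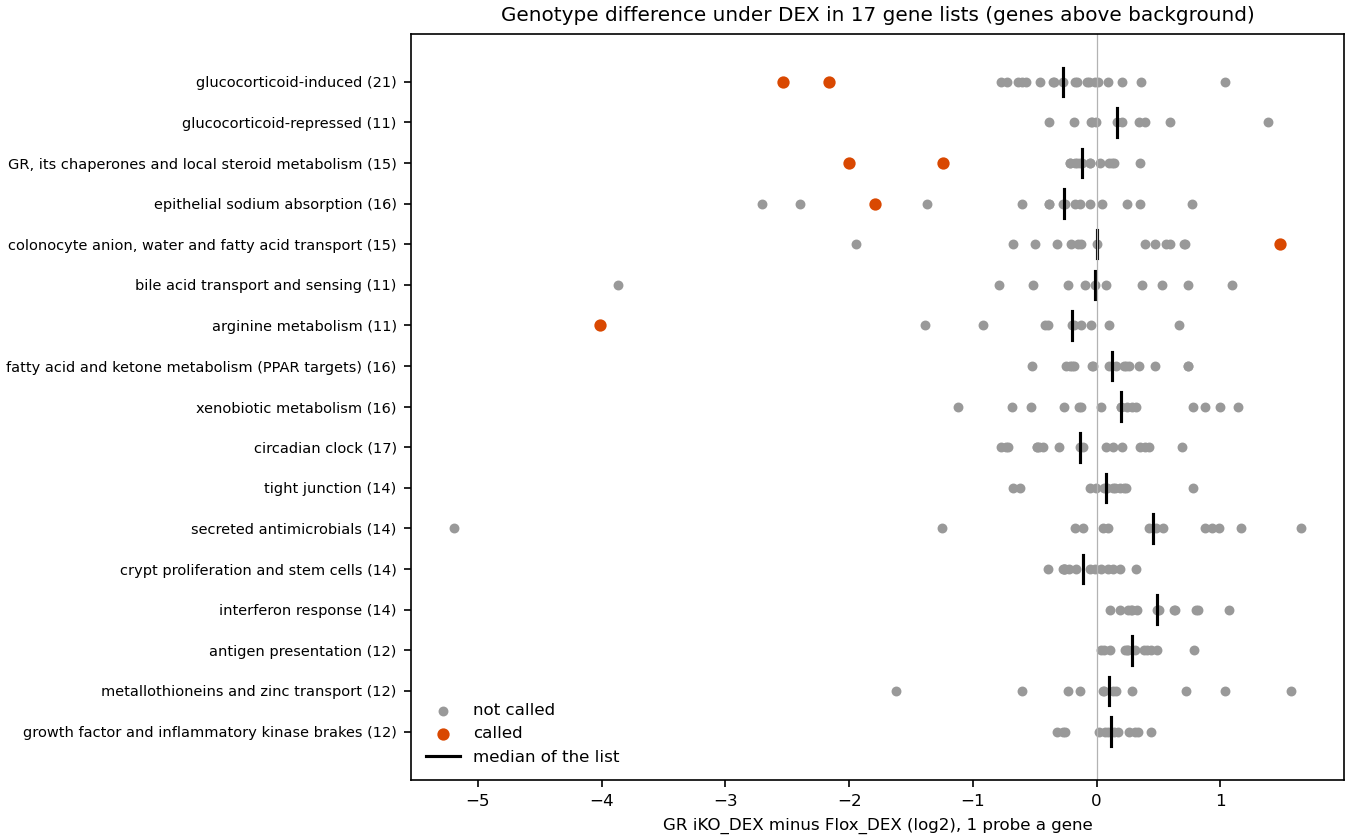
Log2 difference between GR iKO_DEX and Flox_DEX colons (x axis) for the genes above background in 17 lists (rows, with the number of genes), 1 probe a gene, with called genes colored and a bar at each list's median. The medians lie between -0.27 and 0.49, and called genes appear in 5 lists only.

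Colon epithelium was well represented, since all 10 of its markers were well above background on every DEX array and their mean signal was 15.25 to 15.46 in Flox_DEX and 15.33 to 15.55 in GR iKO_DEX colons. Marker means that did not overlap between the DEX groups were those of enteroendocrine cells (12.19 to 12.34 in Flox_DEX, 11.49 to 12.15 in GR iKO_DEX), enteric neurons and glia (7.59 to 7.93 against 7.36 to 7.54), Paneth cells (11.88 to 11.97 against 12.25 to 12.64) and T cells (5.86 to 6.02 against 6.11 to 6.36). The means overlapped for colon epithelium, goblet cells, proximal and distal colon, small intestine, exocrine pancreas, smooth muscle, fibroblasts, endothelium and adipocytes. They also overlapped for macrophages, neutrophils, mast cells, B cells and plasma cells, and erythrocytes. Over all genes above background the groups did not overlap for 9.43% on the lower and 10.5% on the higher side. A lack of overlap was thus common in these data. The Paneth cell mean rested on 4 genes that went both ways, 1 lower and 3 higher, with differences of -1.23 to 1.65. No gene of any of these lists was called. Their part in the differences was not tested.

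Exocrine pancreas markers, which encode digestive enzymes of acinar cells, were far above background on some arrays. Their mean over 13 genes was 16.66, 16.75 and 6.98 in Flox_DEX replicates 1, 2 and 4 and 6.92, 13.32, 6.88 and 12.45 in GR iKO_DEX replicates 1 to 4. Both groups thus held arrays with and without this signal, and the highest were in Flox_DEX. All 12 genes above background were lower in GR iKO_DEX colons with a median of -3.78, and none was called. The kallikrein *Klk1b27* (-3.02, adjusted p = 0.230) was likewise high in Flox_DEX replicates 1 and 2, at 7.83 and 8.83, and lower in replicate 4. In Flox_DEX replicate 4, the array without the signal, *Sgk1* and *Arg2* read 15.37 and 9.98, between or beside the other Flox_DEX arrays. *Pde9a* (13.10), *Hsd11b2* (11.04), *Prodh* (11.37), *Havcr1* (5.43) and *Mt1* (7.59) were lower there than in both others. So were the brighter called *Fkbp5* probe (11.64), *Acy1* (10.46), *Ly6m* (14.28), *Rhou* (12.20), *Gda* (7.69) and *Gldc* (6.45). For *Mt1*, which was higher in GR iKO_DEX colons, the low value widens the difference. Others, such as *Nr3c1* at its brightest probe (10.75) and *Rian* (7.43), were highest there. The part of the pancreas signal in the differences was not tested. When the 5 arrays of the series with a marker mean over 10 were left out, an alternative chosen after seeing the data, 1 Flox_DEX and 2 GR iKO_DEX arrays remained. A lone Flox_DEX array shows no spread of its own, so only the differences of this fit are described here. Its count of called interaction probes, listed with the alternatives, rests on the same lone array and cannot be weighed. The log2 difference was then -2.39 for *Sgk1*, -3.63 for *Arg2*, -2.27 for *Fam43a*, -1.39 for *Nr3c1*, 1.91 for *Sectm1a* and 3.56 for *Mt1*. The sign of the difference was the same for all 55 probes, which does not show whether their calls would hold. Of these, 8 were under 2-fold, such as *Pde9a* (-0.93), *Rhou* (-0.81), *Sbpl* (-0.88), *Slc27a2* (0.84) and *Evpl* (0.78 and 0.72).

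**Figure D4:**
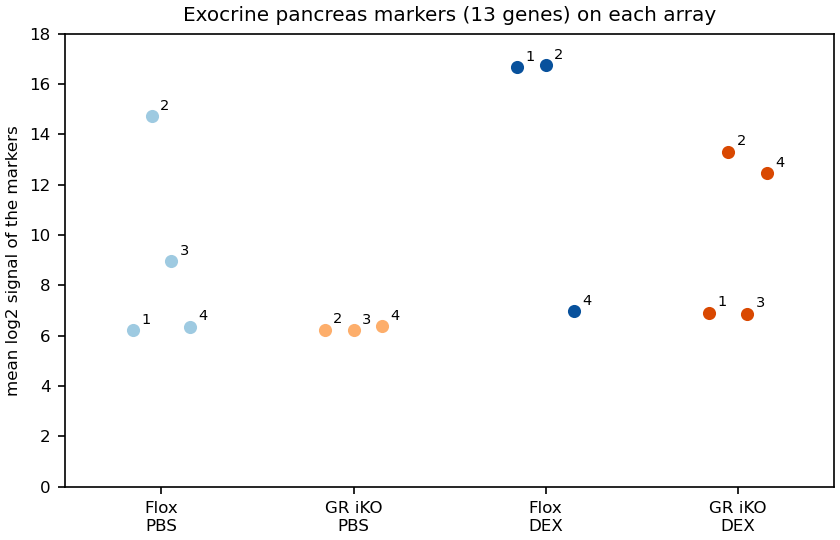
Mean log2 signal of 13 exocrine pancreas marker genes (y axis) on each of the 14 arrays, by group, with the replicate number beside each point. Flox_DEX replicates 1 and 2 lie at 16.66 and 16.75 and replicate 4 at 6.98, while the GR iKO_DEX arrays fall at 6.88 to 6.92 and at 12.45 to 13.32.

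Position on the array also moved with part of the result. The array is a grid of 532 rows and 85 columns. Cut into rows 1 to 178, 179 to 356 and 357 to 532, these parts held 19, 13 and 5 of the lower and 4, 8 and 6 of the higher called probes. Among dim probes above background (mean under 6) the median difference was -0.18, 0.01 and 0.15 in the 3 parts, whereas among bright ones (mean of 8 or more) it was 0.01, 0.00 and -0.03. Of the called probes, 16 of the 37 lower and 2 of the 18 higher ones were dim. A further 24 called probes were not above background, 16 of them higher, and 13 of these lay in the last part of the rows.

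A small patch of the grid held a cluster of the lower probes. A set of 9 lower probes neither rose by 0.5 or more with DEX in Flox mice nor differed by 0.5 or more between the genotypes under PBS, and all 9 lay in rows 142 to 185 and columns 31 to 42. They were *4933429H19Rik*, *Ugt3a2*, *Olfr1189*, *Olfr1366*, *Atp4a*, *Auh* and 3 unnamed probes, and of these 1 unnamed probe stayed called without any 1 array. A second *Auh* probe elsewhere differed by -0.20 (adjusted p = 0.423). The patch held 337 probes above background, 1.19% of them all, and 12 called ones, all lower, including *Havcr1*, *Prodh* and the dimmer called *Fkbp5* probe. That is 3.56% called inside and 0.153% outside the patch, a count that follows from how the patch was drawn. Its 65 dim probes had a median difference of -0.33 under DEX and of -0.01 under PBS, beside -0.01 and -0.02 for the 6818 dim probes outside it. Most of the 9 probes that drew the patch are among these dim ones, so their medians also follow in part from how it was drawn. Its 187 bright probes had a median of -0.05 under DEX. *Havcr1*, a receptor for phosphatidylserine, read 6.05, 6.12 and 5.43 in Flox_DEX and 4.03, 3.67, 3.59 and 4.12 in GR iKO_DEX colons (-2.01, adjusted p = 0.002). Its probe was well above background on 2 of the 4 GR iKO_DEX arrays. The values did not overlap, and in Flox mice the gene was 0.55 higher with DEX than with PBS, which was not called. In GR iKO mice it was 1.49 lower with DEX than with PBS. The part of the patch in these values was not tested. Outside it lay 25 of the lower probes, among them *Sgk1*, *Arg2*, *Fam43a*, *Hsd11b2*, *Slc9a3*, the brighter *Fkbp5* probe and all of *Nr3c1*, and all 18 higher ones. The brighter *Fkbp5* probe (row 137, column 32) and *Fam43a* (row 124, column 38) lay near its first row and within its columns. For 3 lower probes no GR iKO_DEX array was well above background. Their fold was taken with values raised, where lower, to the lowest signal well above background on that array. It was 2.80-fold, 2.54-fold and, for *Atp4a*, 2.16-fold lower. The *Atp4a* values needed no raising, and without GR iKO_DEX replicate 4 its log2 difference was -0.96.

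**Figure D5:**
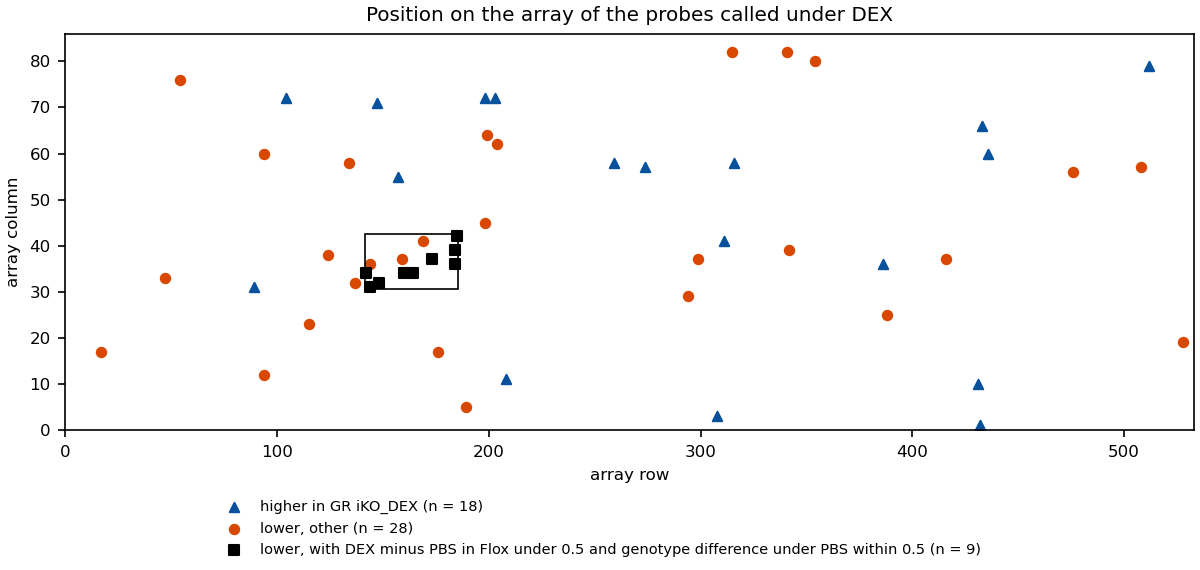
Array row (x axis) and column (y axis) of the 55 probes called between GR iKO_DEX and Flox_DEX colons, with triangles for higher probes, circles for lower probes and squares for the 9 lower probes that differed by less than 0.5 under PBS and rose by less than 0.5 with DEX in Flox mice. The squares all lie in the outlined patch, rows 142 to 185 and columns 31 to 42, which holds no higher probe.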

How the data were processed

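Colon RNA of 14 mice, 1 array each, was hybridized to 1-color Agilent arrays and read with Feature Extraction 12.0.0.7. The authors deposited the spot intensity of each array and a table of log2 values, made with Partek 6.6 per the labels, whose normalization is not given in the sources used here. Quantile normalization of the deposited log2 intensities matched nearly all of its values within 0.0959, so it was taken as quantile normalized. The scanner's flags for being well above background, deposited with each array, set which probes were counted.

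One model with 4 group means was fitted to all 14 arrays in limma 3.58.1 (lmFit, then eBayes under R 4.3.3), tested first on simulated data, and p-values were adjusted over all 41174 probes by the Benjamini-Hochberg method. Tables and plots used Python 3.11.15, pandas 2.3.3, numpy 2.4.6 and matplotlib 3.10.9. Of the probes, 28215 were named through RefSeq (GRCm38.p6), 953 only through the gene symbols in the study's supplemental tables, whose values were not used, and 12006 have no name. Where 1 probe a gene was needed, the probe with the highest mean over all arrays was used. Signals of different probes were not compared as levels.

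Named genes were those called, those plotted by the study and the 3 brightest uncalled members of each list, of which some are not reported here. *Scnn1g*, *Best2*, *Cyp3a13*, *Tsc22d3*, *Per1*, *Slc9a3r1*, *Reg3b* and *Slc16a1* at its other probes were added after their values were seen. Members, gene lists and tests were chosen with earlier results of these data known. The number of arrays limits the precision. Alternatives were other scalings, background corrections, filters, models and sets of arrays.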

Additional observations from a re-analysis of the deposited data

Results flagged for a closer look

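Among 83 sets of values from the 4 GR iKO_DEX arrays, 5 had 1 array far from the others, and chance gives such an array in about 1 group in 20. *Ugt3a2*, in the patch of the grid, was lowest in replicate 3 at 4.05. *Itln1* was lowest in replicate 1 at 13.02. The mean of the proximal colon markers was highest in replicate 2 at 11.1, that of the Paneth cell markers in replicate 4 at 12.6, and that of the B cell and plasma cell markers in replicate 1 at 9.37.

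The DEX response differed between the genotypes at 43 probes above background by the limma interaction term, given as the log2 response of GR iKO minus that of Flox mice. Called genes with such a difference were *Arg2* (-5.00), *Fam43a* (-2.55), *Hsd11b2* (-2.37), *Havcr1* (-2.04), *Acy1* (-1.69) and *Prodh* (-1.62) on the lower side, and *Sectm1a* (2.23), *4930581F22Rik* (1.94), *Rab33a* (1.43) and an unnamed probe (3.13) on the higher side. *Scnn1b* (-2.95) was called for the interaction and not for the difference under DEX, since GR iKO colons were 1.58 higher under PBS (adjusted p = 0.116) and 1.37 lower under DEX. Of these probes, those of *Havcr1* and *Prodh* lay in the patch of the grid. *Havcr1* was 0.55 higher with DEX in Flox mice and 1.49 lower in GR iKO mice. The unnamed probe was very dim, with a mean of 2.95 over the 14 arrays. These interactions share the DEX arrays with the comparison itself.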

How the results depend on the processing

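Every alternative that measured a called probe gave it the same direction. All 55 were measured, or 44 without the last part of the rows, 43 without the patch of the grid and 37 at a mean of at least 6. Alternatives that changed only the test, the threshold, the probes or the estimate of the spread kept the log2 differences. Their direction could not change. Of the 55, 41 stayed called in most alternatives that left out no single array, though without a fold minimum no call could be lost. Array weights kept 52 of the 55, normalization in row parts 50, 75th percentile scaling 41 and median scaling 37. Normexp kept 24, the 7 DEX arrays alone 23, the pancreas covariate 21 and the replicate block 17. Against 55 probes (37 lower, 18 higher), 36 under PBS and 43 for the interaction, the counts moved by over 1.5 times as follows. Normexp correction gave 31 (18 lower) and 5 under PBS. The 7 DEX arrays alone gave 30 (19 lower, 11 higher). Without moderation of the spread there were 36 (11 higher), 14 under PBS and 27 for the interaction. A Student's t-test on the 7 DEX arrays gave 370 (141 lower, 229 higher) at an unadjusted p of 0.05. After Benjamini-Hochberg it gave 1 (0 lower, 1 higher), none of the 55. The study names this test for small groups in general and leaves its array statistics to supplemental methods that were not available here. Without a fold minimum there were 169 (103 and 66), and at an adjusted p of 0.01 there were 12 (9 and 3), 10 under PBS and 2 for the interaction. Adjustment over probes above background alone gave 28 higher. Array weights gave 162 (96 and 66), 59 and 108. An exocrine pancreas covariate gave 22 (18 and 4), 21 and 25. Leaving out the last part of the rows gave 11 higher, 22 and 11. Scaling by the 75th percentile gave 24 lower and 79 for the interaction, and quantile normalization within 3 parts of the rows gave 110 for the interaction.

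Alternatives chosen after seeing the data gave 136 for the interaction without the 5 arrays high in pancreas markers, 31 higher, 16 under PBS and 86 for the interaction over probes with a mean of at least 6, and 24 lower without the patch of the grid.

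Deviations of same-numbered DEX arrays correlated at -0.10, 0.06 and -0.10, beside -0.18 to 0.23 for differently numbered ones. These few values cannot decide whether the samples were paired. On every array the replicate number was also the position on the slide, so a block of one is a block of the other. With the replicate number as a block there were 18 called probes (12 lower, 6 higher), 15 under PBS and 18 for the interaction.

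Leaving out 1 of the 7 arrays in turn gave 13 to 120 called probes, 9 to 97 lower and 4 to 23 higher, with 28 to 94 under PBS and 16 to 109 for the interaction. The lowest count, 13, came without Flox_DEX replicate 1, when 12 of the 55 stayed called, and the highest without Flox_DEX replicate 4, when 39 did. In all such fits 11 probes stayed called.

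Some small differences of uncalled genes changed sign. With normexp *Nr3c1* at its dimmest probe was 0.0144. Without the arrays high in pancreas markers *Ccl5* was -0.148, *Car1* -0.635, *Ckb* -0.434, *Cldn7* -0.168, *F11r* -0.115, *Pcna* 0.117 and *Slc39a4* -0.101. *Car1* was also -0.0213 with 75th percentile scaling, -0.0854 with median scaling, -0.0724 with normexp, -0.0179 with array weights and -0.0556 with normalization in row parts. Median scaling gave -0.0419 for *Cldn7*, -0.0292 for *Mki67* and -0.0467 for *H2-K1*, normalization in row parts -0.0277 for *Lypd8*, and the pancreas covariate 0.0213 for *Pcna*. Over fits without 1 array, *Car1* ranged from -0.304 to 0.300, *Ckb* from -0.056 to 0.287, *Oat* from -0.080 to 0.017, *Cldn7* from -0.0028 to 0.176, *Mki67* from -0.0092 to 0.098, *Pcna* from -0.067 to 0.070, *H2-K1* from -0.057 to 0.090 and *B2m* from -0.057 to 0.224. The cause was not tested. Low signal over background limits the 16 lower and 2 higher dim probes, and 3 against 4 arrays limit every call.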
